A study of Mus musculus with 18 samples.

Results

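RNA of the intestine and the lung was compared between septic mice that inhaled hydrogen and septic mice that did not, to ask for which genes the 2 organs differed in how they stood apart from their controls. All 4 groups were male C57BL/6 mice, 9 weeks old, that had undergone cecal ligation and puncture (CLP), an operation in which the cecum is tied off and punctured so that gut bacteria leak into the abdomen. H2 mice inhaled 7% H2 without interruption from the end of surgery, and control mice had the operation without the gas. Organs were taken at 24 h. H2 animals were kept together in a gas box, so gas and housing cannot be told apart. The groups were H2 intestine, control intestine, H2 lung and control lung, with 3 libraries each, 12 of the 18 libraries of the series. Sham-operated mice are not analysed here. Whether an intestine and a lung library share a mouse is not given, and p-values measure the spread between these libraries.

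A gene entered when its mean FPKM (its fragment count scaled by transcript length and by the library's mapped fragments) was at least 1 in each organ, which held for 11081 of 24346 gene symbols. A further 829 genes reached that mean in the intestine alone and 2343 in the lung alone, and they are not described. That mean pooled the H2 and control libraries of an organ, so a gene could pass through the group in which it was high. The H2 change of a gene in an organ is the mean log2(FPKM + 1) of its H2 libraries minus that of its control libraries. The difference is the H2 change in the intestine minus the H2 change in the lung, given with its standard error, so a positive value means that H2 against control stood higher in the intestine than in the lung. These folds understate the change of genes with few FPKM.

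The intestine is lined by absorptive epithelium that renews itself from dividing crypt cells and runs on mitochondrial respiration, whereas the lung is a bed of capillary endothelium and thin alveolar epithelium that collects neutrophils and monocytes in sepsis. Bacterial products and interferons switch on chemokines, acute-phase proteins and antiviral genes in both organs. Hydrogen is studied in sepsis models as a gas with antioxidant action.

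Both tissue labels matched their defining markers. Summed enterocyte markers were 18067 to 35403 FPKM in H2 intestine and 10286 to 18064 FPKM in control intestine, against at most 80.9 FPKM in any lung library. Summed alveolar type I markers were 3451 to 3845 FPKM in H2 lung and 2140.1 to 2992 FPKM in control lung, against at most 109 FPKM in any intestine library. The depth implied by single-fragment values was 12.6, 8.86 and 10.6 M fragments in H2 intestine, 10.8, 13.3 and 10.5 M in control intestine, 13.9, 16.3 and 15.5 M in H2 lung and 10.5, 13.03 and 12.3 M in control lung, so every H2 lung library was deeper than every control lung library. H2 intestine 2 had a summed FPKM of 1142966, against 709826 to 850609 in the other libraries. On an axis set to 0 at the control mean and 1 at the H2 mean of an organ, with each library left out of its own axis, control lung 3 lay at 0.76, close to the H2 lungs at 0.79 to 0.87 and away from control lungs 1 and 2 at -0.35 and 0.19. The intestine was less separated, with H2 libraries at 0.55, 0.91 and 0.40 and control libraries at 0.093, 0.59 and 0.29.

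No gene passed the test of the difference between organs: limma called 0 of 11081 genes at an adjusted p under 0.05, with 1719 genes (15.5%) at an unadjusted p under 0.05. Of these, 1041 (9.39% of tested genes) had a positive difference and 678 (6.12%) a negative one. That split depends on the scaling, with 723 positive and 777 negative after quantile normalization and 846 and 828 after median-of-ratios scaling. Neither organ alone passed the test either, with 0 calls and 2091 genes (18.9%; 10.2% higher and 8.67% lower with H2) at an unadjusted p under 0.05 in the intestine, and 0 calls and 1959 genes (17.7%; 6.98% higher and 10.7% lower) in the lung. The lowest adjusted p was 0.0791 for the difference, 0.102 in the intestine and 0.0698 in the lung. The values that follow are measured differences, none of which passed the test with all 12 libraries.

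The 1719 genes were picked by their difference between the organs, and picking by a difference favours opposite signs, so their signs are given as a description. H2 stood above control in the intestine and below it in the lung for 934 of them, the reverse held for 608, and 177 had the same sign in both organs. Over all tested genes 5029 (45.4%) had opposite signs, and across genes, which are not independent replicates, the H2 changes of the organs correlated with r = 0.25. With H2, 5685 of all 11081 genes had a higher and 5396 a lower mean in the intestine. In the lung these counts were 5026 and 6055, and 6041 genes had a positive difference. Sign counts of the lists below stand beside these. A stricter reading asks that the 3 H2 libraries and the 3 control libraries of an organ do not overlap. That was met by 2119 genes (19.1%) in the intestine and 3326 (30.0%) in the lung. It was met in both organs with H2 above control in the intestine and below it in the lung by 179 genes (1.62%), and with the reverse pattern by 96 (0.866%), against 184 genes (1.66%) above control in both organs and 229 (2.07%) below control in both. Orders that matched between the organs were thus more frequent than opposite ones over all genes.

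**Figure D1:**
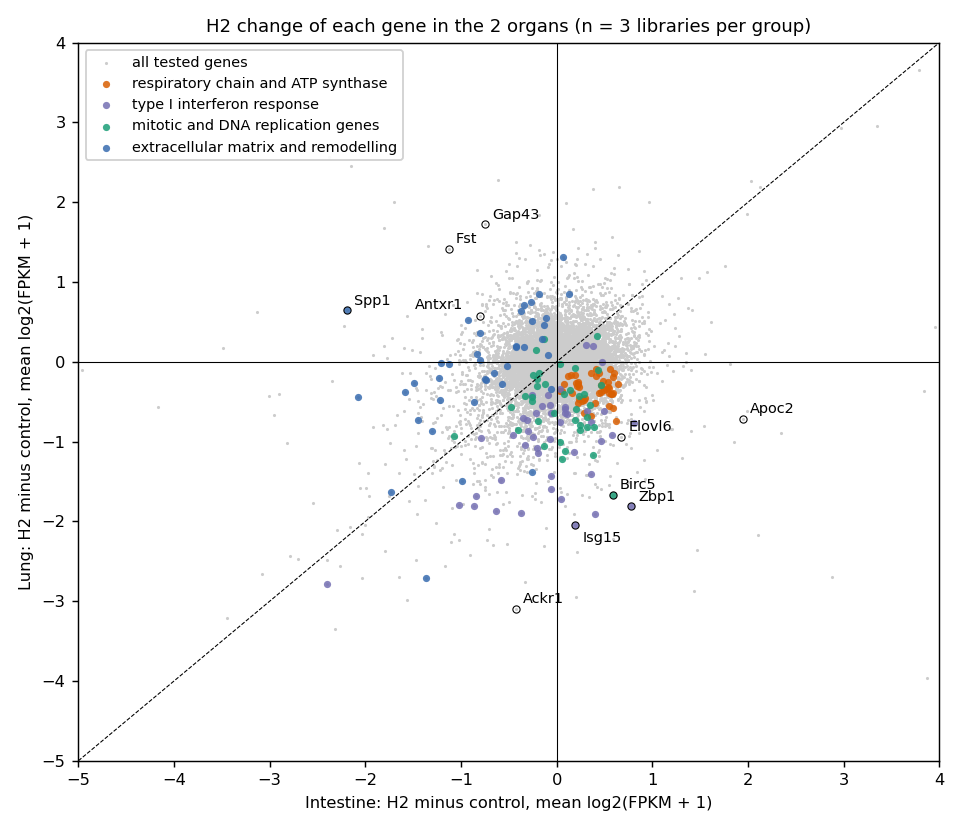
H2 minus control in mean log2(FPKM + 1), in the intestine (x axis) and in the lung (y axis), for the 11081 tested genes (grey; 5 lie outside the axes), with 4 gene lists in colour, named genes ringed and the line of equal change dashed. The 44 respiratory chain genes all sit to the right of 0 in the intestine and below 0 in the lung, and most interferon genes lie near 0 in the intestine and below 0 in the lung.

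Elovl6 (chr3:129532355-129638495, mm10), which elongates long-chain fatty acids, had the smallest p. It measured 25.9, 33.7 and 26.8 FPKM in H2 intestine, against 17.7, 17.8 and 17.1 FPKM in control intestine. In the lung it measured 1.153, 1.03 and 0.971 FPKM in H2 libraries, against 3.81, 2.75 and 2.35 FPKM in control libraries. H2 and control did not overlap in either organ, and the order was opposite. The difference was 1.61 ± 0.21 on the log2 scale, made up of 0.68 ± 0.15 in the intestine and -0.94 ± 0.15 in the lung (limma adjusted p 0.0791). Lipid transport showed the same form in Apoc2 (chr7:19671579-19677941), the cofactor of lipoprotein lipase, at 102, 189 and 101 FPKM in H2 intestine and 24.9, 57.4 and 22.0 FPKM in control intestine, then 17.5, 15.5 and 17.3 FPKM in H2 lung and 31.4, 25.8 and 27.3 FPKM in control lung. Every H2 intestine was above every control intestine, and every H2 lung below every control lung, for a difference of 2.66 ± 0.46. The tricarboxylic acid cycle enzyme gene Mdh2, mitochondrial malate dehydrogenase, had the same order, at 332, 384 and 319.5 FPKM in H2 intestine, 268, 242 and 236 FPKM in control intestine, 129.6, 121 and 139 FPKM in H2 lung and 199, 177 and 168 FPKM in control lung (difference 0.94 ± 0.18).

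Small RNA and predicted genes aside, the 12 genes with a positive difference and the smallest p also held the fucose mutarotase gene Fuom (1.31 ± 0.23), the inorganic pyrophosphatase gene Ppa1 (1.38 ± 0.26), the mitotic genes Cdca3, Ccnb1, Birc5 and Cenpm, the respiratory chain genes Atp5g1 and Uqcrq, and the inflammasome adaptor gene Pycard. All 12 were higher in H2 intestine and lower in H2 lung than in the controls by their means. All 12 did not overlap in the lung, and the intestine libraries of Ccnb1, Birc5, Cenpm and Pycard overlapped. Over all tested genes 30.0% did not overlap in the lung and 19.1% in the intestine. Cenpm passed the lung filter through its controls, at a mean of 0.949 FPKM in H2 lung and 3.36 FPKM in control lung. The 12 were picked by their difference, which favours opposite signs and libraries that do not overlap, so these orders are a description. Adjusted p-values of these 12 and of the 12 with a negative difference ran from 0.0791 to 0.171 in limma.

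The reverse pattern, H2 below control in the intestine and above it in the lung, was led by Gap43 (chr16:42248442-42340651), a membrane protein of growing nerve endings. It measured 0.462, 0.467 and 1.81 FPKM in H2 intestine and 2.68, 1.62 and 1.98 FPKM in control intestine, where the third H2 library lay within the control range. In the lung it was 7.43, 6.92 and 8.10 FPKM in H2 libraries, against 0.718, 2.36 and 1.90 FPKM in control libraries, with no overlap (difference -2.48 ± 0.41). Fst, follistatin, which binds and blocks activin, measured 0.276, 0.260 and 0.615 FPKM in H2 intestine, 2.60, 1.01 and 2.75 FPKM in control intestine, 19.1, 7.21 and 11.9 FPKM in H2 lung and 3.20, 2.59 and 6.36 FPKM in control lung. Neither organ overlapped, and its difference was -2.55 ± 0.50, at under 1 FPKM in each H2 intestine library.

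The collagen-binding receptor gene Antxr1 (chr6:87133853-87335821) had 2.195, 1.72 and 3.14 FPKM in H2 intestine and 5.11, 4.78 and 4.38 FPKM in control intestine, then 13.2, 16.4 and 18.3 FPKM in H2 lung and 9.87, 10.5 and 10.6 FPKM in control lung, for a difference of -1.38 ± 0.23. H2 and control lay apart in both organs, low with H2 in the intestine and high with H2 in the lung. The collagen-binding integrin gene Itga1 had a difference of -1.67 ± 0.37, the matrix protein gene Abi3bp -1.33 ± 0.22, the adhesion molecule gene Clmp -1.77 ± 0.34 and Mxra8 -1.12 ± 0.25. Emp2, a membrane protein of alveolar type I cells, was scarce in the intestine, at 1.43, 0.916 and 2.10 FPKM in H2 libraries and 3.44, 3.08 and 2.76 FPKM in control libraries, and abundant in the lung, at 288, 325 and 357 FPKM in H2 libraries and 158, 243 and 231 FPKM in control libraries (difference -1.38 ± 0.29). The remaining members were Pitpnc1, a phosphatidylinositol transfer protein gene (-1.47 ± 0.27), the inositol trisphosphate kinase gene Itpkb (-1.38 ± 0.27), the cytoskeletal linker gene Macf1 (-0.95 ± 0.21) and Fam57a (-1.18 ± 0.23). In H2 intestine the mean was 0.58 FPKM for Pitpnc1, 0.93 for Abi3bp, 0.91 for Gap43 and 0.38 for Fst. In control intestine these means were 1.61, 1.53, 2.09 and 2.12 FPKM, so these genes passed the intestine filter through their controls. All 12 genes with a negative difference lay apart in the lung, and in the intestine Gap43 and Fam57a overlapped. These 12 too were picked by their difference, so these orders are a description.

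**Figure D2:**
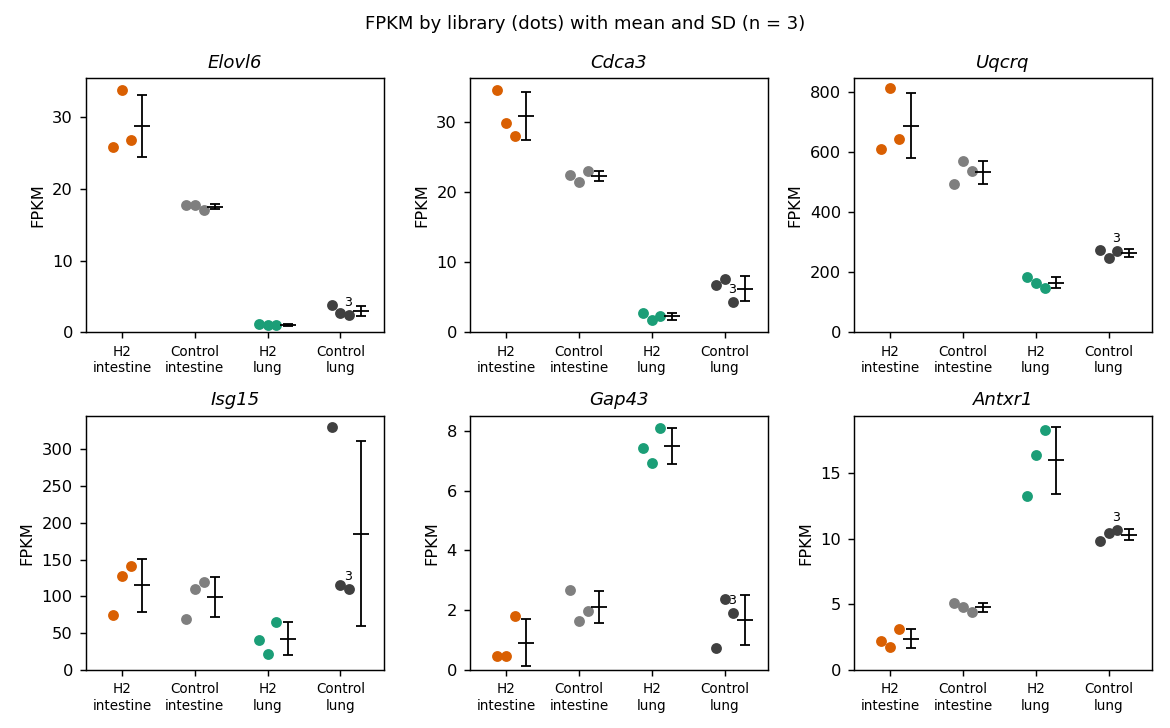
FPKM of 6 genes (y axes, from 0) in each library (dots, 3 per group, control lung 3 marked), with the group mean and SD beside them. For Elovl6, Cdca3 and Uqcrq every H2 intestine library is above, and every H2 lung library below, its controls; Gap43 and Antxr1 show H2 lung above control lung, and Isg15 overlaps in the intestine and not in the lung.

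Respiratory chain genes had 1 sign in each organ. Their products, together with ATP synthase, turn the oxidation of nutrients into ATP at the inner mitochondrial membrane. All 44 members were tested, all 44 had a higher mean in H2 intestine than in control intestine, and all 44 had a lower mean in H2 lung than in control lung. At an unadjusted p under 0.05, 37 of 44 had a positive difference and 0 a negative one, against 9.39% and 6.12% of all tested genes, and 0 passed after adjustment. The median difference was 0.75, from 0.41 in the intestine and -0.33 in the lung, against 0.044, 0.010 and -0.032 over all tested genes. Without H2 intestine 2 the median in the intestine was 0.22. In 22 of 44 members H2 lay wholly above control in the intestine and wholly below it in the lung, against 1.62% of all tested genes.

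All complexes had a positive median. Median differences were 0.75 over 16 members of complex I, which oxidises NADH, 0.62 over 4 of complex II, 0.58 over 5 of complex III, 0.85 over 10 of complex IV, which reduces oxygen, and 0.69 over 8 of ATP synthase. The lowest single value was 0.30 for Atp5d, and the highest was 1.36 ± 0.34 for Cycs, the electron carrier cytochrome c. The complex III subunit gene Uqcrq measured 609, 811 and 642 FPKM in H2 intestine and 492, 568 and 537 FPKM in control intestine, and 184, 163 and 148 FPKM in H2 lung and 273, 249 and 270.5 FPKM in control lung, with a difference of 1.03 ± 0.20. Atp5g1, which encodes the membrane rotor subunit of ATP synthase, measured 339, 366 and 290.2 FPKM in H2 intestine and 177, 264 and 225 FPKM in control intestine, and 81.8, 66.9 and 72.2 FPKM in H2 lung and 109, 112 and 108 FPKM in control lung, with a difference of 1.16 ± 0.23. Both genes lay apart in both organs; Atp5g1 has close copies in the genome, and how shared reads were assigned is not given in the sources used here. Cox5b of complex IV (difference 0.92 ± 0.19) behaved likewise.

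Scaling, transcript length and cell content moved with this group. After quantile normalization 14 of 44 members had an unadjusted p under 0.05, 0 were negative, and the median was 0.37; after median-of-ratios scaling these values were 37, 0 and 0.69. The median transcript length of the members was 0.670 kb, against 1.33 kb for all tested genes with a length. The median difference over all tested genes was 0.13 for those up to 1 kb, 0.064 from 1 to 2 kb, -0.0060 from 2 to 3 kb and -0.12 above 3 kb, and 0.74 for the 38 respiratory chain members up to 1 kb. Enterocyte marker sums, given above, were also higher in each H2 intestine than in each control intestine, by a narrow margin in the closest pair. In bulk tissue a change in the number of cells of a type and in the RNA per cell cannot be told apart, and the part of length, scaling or cell content in this result was not tested.

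Glycolysis and hypoxia genes did not share one direction. Of 32 members tested of 34 listed, 6 had a positive and 1 a negative difference at an unadjusted p under 0.05 (9.39% and 6.12% of all genes), the median was 0.023, and it was -0.13 after quantile normalization and -0.021 after median-of-ratios scaling. Those with a positive difference included Ldha, lactate dehydrogenase, at 886, 1237 and 847 FPKM in H2 intestine and 767, 559 and 583 FPKM in control intestine, and 218, 219 and 207 FPKM in H2 lung and 444, 355 and 294 FPKM in control lung. Ldha lay apart in both organs in opposite order, with a difference of 1.37 ± 0.27. For the lactate transporter gene Slc16a1 the difference of 1.02 ± 0.26 was made up of -0.078 in the intestine and -1.10 in the lung, whereas for the glycolytic enzyme gene Tpi1 (0.84 ± 0.25) it was made up of 0.74 in the intestine and -0.092 in the lung. The lactate exporter gene Slc16a3 had a difference of 1.37 ± 0.47 with overlap in the intestine.

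Genes of mitosis and DNA replication drive cells through division, and in the gut they mark the crypts. Of 38 members tested of 42 listed, 18 had a positive difference and 0 a negative one at an unadjusted p under 0.05 (9.39% and 6.12% of all genes), with 0 after adjustment. The median difference was 0.54, made up of 0.067 in the intestine and -0.52 in the lung. In total 23 of 38 members lay wholly below control in H2 lung, against 1962 of all 11081 genes (17.7%). The counts were 17 and 0 after quantile normalization, and the median difference was 0.28 with a pseudocount of 5. With a filter of 5 FPKM only 12 members were left, 4 of them positive and 0 negative, with a median difference of 0.13 and an intestine median of -0.045. Median levels of the list were 3.71, 3.42 and 3.78 log2(FPKM + 1) in H2 intestines and 3.42, 3.74 and 3.62 in control intestines, which overlapped, and 2.04, 1.73 and 1.87 in H2 lungs and 2.68, 2.58 and 2.28 in control lungs, with no overlap.

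Cdca3, an F-box protein of mitotic entry, measured 34.6, 29.9 and 28.02 FPKM in H2 intestine and 22.4, 21.5 and 22.99 FPKM in control intestine, and 2.82, 1.82 and 2.34 FPKM in H2 lung and 6.75, 7.67 and 4.29 FPKM in control lung. It lay apart in both organs and had a difference of 1.55 ± 0.26. Ccnb1, a mitotic cyclin, had 19.6, 22.6 and 15.8 FPKM in H2 intestine and 13.8, 13.4 and 16.3 FPKM in control intestine, which overlapped, and 1.40, 0.792 and 1.03 FPKM in H2 lung and 3.43, 5.02 and 2.71 FPKM in control lung, which did not (difference 1.55 ± 0.27). Birc5, survivin, a subunit of the chromosomal passenger complex, followed at 32.5, 24.6 and 40.0 FPKM in H2 intestine and 20.6, 28.8 and 15.1 FPKM in control intestine, and 4.22, 1.60 and 3.25 FPKM in H2 lung and 12.8, 12.96 and 8.56 FPKM in control lung (difference 2.25 ± 0.42). Cyclin gene Ccna2 (1.10 ± 0.23), spindle motor gene Kif11 (1.003 ± 0.22) and kinetochore gene Cenpm (1.44 ± 0.28) had the same signs.

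Many cell division genes carry CCAAT boxes and the CHR element, TTTGAA, near their start. The promoters of Cdca3 (chr6:124829926-124830225, plus strand) and Ccnb1 (chr13:100786437-100786736, minus strand) are shown as examples that hold matches, picked from the mitotic genes among the 12 leading ones; they are RefSeq windows of GRCm38.p6 from 250 bases before to 50 after the start, with matches on either strand in capitals. Cdca3 held CCAAT 3 times and TTTGAA 1 time, and Ccnb1 held CCAAT 2 times and TTTGAA 0 times.
Cdca3: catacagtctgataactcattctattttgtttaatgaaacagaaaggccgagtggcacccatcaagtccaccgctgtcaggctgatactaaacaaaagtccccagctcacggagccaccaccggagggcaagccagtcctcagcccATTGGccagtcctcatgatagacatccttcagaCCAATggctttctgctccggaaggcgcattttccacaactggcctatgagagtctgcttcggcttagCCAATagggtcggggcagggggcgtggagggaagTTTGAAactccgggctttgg
Ccnb1: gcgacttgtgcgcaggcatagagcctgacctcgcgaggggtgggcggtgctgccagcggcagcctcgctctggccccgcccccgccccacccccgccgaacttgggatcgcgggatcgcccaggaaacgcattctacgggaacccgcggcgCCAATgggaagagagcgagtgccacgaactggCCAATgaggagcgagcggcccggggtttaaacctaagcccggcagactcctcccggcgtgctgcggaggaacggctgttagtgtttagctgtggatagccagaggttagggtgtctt

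The 2 motifs share no bases in these windows. CCAAT was found in 23 of 30 tested list members with a window (76.7%), against 42.6% of tested genes with a window and 37.4% of all 32851 windows, and TTTGAA in 13 of 30 (43.3%), against 13.8% and 17.9%. Birc5 held neither in its window. These are matches of letters and not measured binding.

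Type I interferon response genes encode antiviral effectors and the factors that induce them. All 46 were tested and all 46 had a positive difference, 18 at an unadjusted p under 0.05 and 0 negative (9.39% and 6.12% of all genes), with 0 after adjustment. The median difference was 0.78, from -0.060 in the intestine and -0.91 in the lung. It was 0.84 after quantile normalization and 0.71 after median-of-ratios scaling. In the lung 44 members had a lower mean with H2, 32 of them without overlap (17.7% of all genes did so, and 6055 of 11081 had a lower mean), whereas in the intestine 21 had a higher and 25 a lower mean. Median levels were 4.10, 4.49 and 4.19 log2(FPKM + 1) in H2 intestines and 4.27, 4.40 and 4.43 in control intestines, and 4.10, 3.57 and 4.30 in H2 lungs and 5.39, 4.72 and 4.52 in control lungs. The H2 and control lungs lay apart, and the intestines overlapped.

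Zbp1, a sensor of nucleic acids that triggers cell death, measured 94.2, 187 and 166 FPKM in H2 intestine and 53.1, 131 and 81.8 FPKM in control intestine, and 25.2, 17.4 and 33.9 FPKM in H2 lung and 135, 85.03 and 61.2 FPKM in control lung. Its lungs lay apart, its intestines overlapped, and its difference of 2.59 ± 0.55 was the largest of the list. Irf7, the master inducer of interferon-alpha genes, had 111, 133 and 155 FPKM in H2 intestine and 79.0, 102 and 121 FPKM in control intestine, and 29.1, 15.3 and 37.8 FPKM in H2 lung and 178, 90.6 and 61.0 FPKM in control lung (difference 2.32 ± 0.53). Isg15, a ubiquitin-like modifier, had 74.5, 128 and 142 FPKM in H2 intestine and 68.5, 109.8 and 119 FPKM in control intestine, and 39.9, 21.2 and 65.6 FPKM in H2 lung and 330.3, 115 and 110.4 FPKM in control lung (difference 2.24 ± 0.66). For both, control lung 1 was the highest lung library, control lung 3 the lowest control, and the intestines overlapped. Oas1g, an oligoadenylate synthetase with near-identical neighbours in the genome, lay apart in both organs in opposite order (difference 1.49 ± 0.39).

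Interferon-stimulated genes are switched on through response elements that hold repeats of GAAA. The promoters of Isg15 (chr4:156200769-156201068, minus strand) and Oas1g (chr5:120887564-120887863, minus strand) are printed as examples that hold matches, picked from the interferon genes described above. Capitals mark 2 copies of GAAA spaced by 2 bases, where the pair was found on either strand. Overlapping matches were counted separately, 3 in Isg15 and 2 in Oas1g.
Isg15: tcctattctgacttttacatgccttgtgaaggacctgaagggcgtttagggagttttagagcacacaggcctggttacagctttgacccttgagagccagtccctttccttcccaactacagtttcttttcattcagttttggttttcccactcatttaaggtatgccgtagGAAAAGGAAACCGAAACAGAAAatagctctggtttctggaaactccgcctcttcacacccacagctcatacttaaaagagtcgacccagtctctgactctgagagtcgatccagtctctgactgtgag
Oas1g: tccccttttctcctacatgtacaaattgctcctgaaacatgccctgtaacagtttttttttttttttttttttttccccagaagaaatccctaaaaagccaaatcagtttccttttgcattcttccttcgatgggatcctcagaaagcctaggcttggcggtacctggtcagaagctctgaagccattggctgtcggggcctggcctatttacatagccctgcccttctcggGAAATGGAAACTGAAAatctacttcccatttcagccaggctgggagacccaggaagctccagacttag

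The spaced pair was in 18 of 33 tested list members with a window (54.5%), against 3.88% of tested genes with a window and 3.44% of all windows. Irf7 had no match in its window, and Zbp1 had no window. For comparison, GCGCA and GCGC spaced by 1 base, the core of the nuclear respiratory factor motif, were in 8 of 34 tested respiratory chain members with a window (23.5%), against 4.60% of all windows and 12.2% of tested genes with a window.

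The interferon-gamma GTPases attack the vacuoles of intracellular microbes. Of 17 members tested of 19 listed, 16 had a positive difference, 0 of them at an unadjusted p under 0.05, and the median was 0.64. H2 stood below control in both organs by the medians, at -0.49 in the intestine and -1.22 in the lung, but the intestine value rested on 1 library. Without control intestine 2 the intestine median was 0.010. In that setting 7 of 17 members had a positive difference between the organs at an unadjusted p under 0.05. Over the settings that left out 1 library, 1123 to 2487 of all genes had such a p for the difference, in either direction. The positive share of all genes without control intestine 2 is not given here, so the 7 members have no matched share. With array weights, whose estimation did not converge, the intestine median was 0.039. Iigp1 measured 17.3, 30.0 and 12.5 FPKM in H2 intestine and 28.8, 60.2 and 18.1 FPKM in control intestine, which overlapped, and 21.0, 15.1 and 33.1 FPKM in H2 lung and 140.5, 159 and 54.2 FPKM in control lung, which lay apart (difference 1.502 ± 0.70). Among 27 genes of antigen presentation and the immunoproteasome, 6 had a positive and 1 a negative difference at an unadjusted p under 0.05 (9.39% and 6.12% of all genes), with a median of 0.42. After quantile normalization 2 were positive and 1 negative, with a median of 0.13. The lysosomal protease gene Ctss (1.23 ± 0.31) and the proteasome activator gene Psme2 (1.10 ± 0.32) were positive, and Cd1d1, which presents lipids to natural killer T cells, was negative (-0.88 ± 0.27).

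Inflammasome genes sense bacterial products inside the cell and start pyroptosis. Of 23 Toll-like receptor and inflammasome genes tested of 34 listed, 7 had a positive and 0 a negative difference at an unadjusted p under 0.05 (9.39% and 6.12% of all genes), with a median of 0.55. The medians were 0.057 in the intestine, or -0.019 after quantile normalization, and -0.27 in the lung. Pycard, the adaptor that joins sensors to caspase, measured 109, 212 and 151 FPKM in H2 intestine and 78.1, 110.4 and 108 FPKM in control intestine, and 13.1, 13.7 and 9.01 FPKM in H2 lung and 39.5, 27.7 and 23.9 FPKM in control lung, for a difference of 1.89 ± 0.37. Its lungs lay apart, and its intestines overlapped in 1 H2 library. Gsdmd, the pore-forming protein of pyroptosis, lay apart in both organs, at 421, 656 and 387 FPKM in H2 intestine and 303, 264 and 222 FPKM in control intestine, and 36.6, 30.7 and 32.8 FPKM in H2 lung and 44.7, 37.0 and 37.4 FPKM in control lung (difference 1.10 ± 0.28). The bacterial sensor gene Naip2 (1.01 ± 0.34) was higher with H2 in the intestine by 0.76, and Casp4, the sensor of cytosolic lipopolysaccharide, had 1.18 ± 0.43 with -1.06 in the lung.

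Chemokines, which call in leukocytes, had negative median changes in both organs. Apart from the neutrophil-recruiting ones, 32 chemokine and receptor genes tested of 37 listed had medians of -0.35 in the intestine and -0.82 in the lung. Of them 7 had a positive and 0 a negative difference at an unadjusted p under 0.05, beside 9.39% and 6.12% of all genes. Ackr1, the atypical chemokine receptor of venules, measured 12.2, 7.63 and 13.1 FPKM in H2 intestine and 14.0, 13.6 and 16.9 FPKM in control intestine, and 1.79, 0.878 and 0.864 FPKM in H2 lung and 39.1, 19.6 and 6.41 FPKM in control lung. H2 lay wholly below control in both organs, with H2 changes of -0.43 in the intestine and -3.10 in the lung (difference 2.67 ± 0.65). The myeloid chemokine gene Ccl6 had opposite orders without overlap, at 261, 429 and 261 FPKM in H2 intestine and 105, 250.4 and 166 FPKM in control intestine, and 199.9, 129.5 and 150.1 FPKM in H2 lung and 566, 431 and 209 FPKM in control lung (difference 2.14 ± 0.54). Ccl9 (1.93 ± 0.46) and the monocyte receptor gene Ccr2 (1.02 ± 0.27) were positive too. Of 10 neutrophil-recruiting chemokines and colony-stimulating factors tested of 15 listed, all 10 had a lower mean in H2 intestine and 7 in H2 lung. The median difference of -0.47 became 0.21 without control lung 3 and 0.57 without control intestine 1. Csf2, the granulocyte-macrophage growth factor, was the 1 member at an unadjusted p under 0.05, at 0.874, 0 and 0.104 FPKM in H2 intestine and 3.65, 0.910 and 3.57 FPKM in control intestine, and 4.13, 3.71 and 4.76 FPKM in H2 lung and 5.08, 3.29 and 3.15 FPKM in control lung. It lay wholly below control in the intestine and overlapped in the lung (difference -1.55 ± 0.47).

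Acute-phase and STAT3 target genes, part of the systemic response to interleukin-6, had lower means with H2 in both organs. Of 29 tested of 40 listed, 27 had a lower mean in H2 intestine and all 29 in H2 lung (5396 and 6055 of all 11081 genes). The medians of the list were -0.79 in the intestine and -1.07 in the lung. At an unadjusted p under 0.05, 3 had a positive and 0 a negative difference, a share close to the 9.39% and 6.12% of all genes. Without control lung 3 these were 10 and 0, beside 11.6% and 8.12% of all genes, and 5 passed after adjustment, beside 1.40%. The serum amyloid genes Saa2 and Saa1 had the smallest p of the list. Saa1 (chr7:46740497-46742980) measured 8592, 9312 and 7188 FPKM in H2 intestine and 5254, 6970.3 and 6044 FPKM in control intestine, and 193, 167 and 166 FPKM in H2 lung and 1125, 388 and 339.6 FPKM in control lung. It lay apart in both organs in opposite order, with a difference of 2.05 ± 0.49 (limma adjusted p 0.171). Saa2 measured 23.1, 28.9 and 31.6 FPKM in H2 intestine and 25.4, 41.8 and 40.7 FPKM in control intestine, and 24.6, 30.2 and 28.9 FPKM in H2 lung and 404, 175 and 102 FPKM in control lung, with overlap in the intestine and none in the lung (difference 2.42 ± 0.55). The genes are near-identical neighbours, and reads may be split between them. The iron hormone gene Hamp (2.10 ± 0.73) was the third member at an unadjusted p under 0.05, and the NF-kB cofactor gene Bcl3 (0.77 ± 0.38) missed it.

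Classical inflammatory mediators gave differences within their spread, Saa1 apart. Of 12 such genes 11 passed the filter in both organs, 10 had a lower mean in H2 intestine and 9 in H2 lung, and 4 had a positive difference. Saa1 alone was at an unadjusted p under 0.05. That is 9.09% positive and 0 negative, close to the 9.39% positive and not above the 6.12% negative of all genes. Il10 was below the filter in the intestine. Cxcl2, which recruits neutrophils, measured 6.92, 0.583 and 3.83 FPKM in H2 intestine and 152, 4.05 and 46.7 FPKM in control intestine, and 14.8, 8.33 and 3.96 FPKM in H2 lung and 208, 79.4 and 10.01 FPKM in control lung. Control intestine 2 and control lung 3 lay within or close to the H2 range of their organ, and the difference was -0.42 ± 1.73. Il6 had 17.0, 1.74 and 3.03 FPKM in H2 intestine and 49.96, 1.16 and 46.0 FPKM in control intestine, and 2.68, 2.09 and 1.87 FPKM in H2 lung and 104, 27.6 and 4.48 FPKM in control lung (difference 1.42 ± 1.75). Lcn2, which withholds iron from bacteria, lay wholly below control in both organs, at -1.16 in the intestine and -1.146 in the lung. Its difference was -0.018 ± 0.57. Il1b (-0.28 ± 1.13), Cxcl1 (-0.19 ± 1.40), Ccl2 (-0.25 ± 0.89), Tnf (0.29 ± 0.66), Nos2 (-0.54 ± 0.50), Hmox1 (0.65 ± 0.71) and S100a8 (-0.38 ± 0.77) had differences smaller than 2 times their standard error, so the values do not show whether the organs differed.

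Of 38 tested cytokines and receptors, of 54 listed, 4 had a positive and 2 a negative difference at an unadjusted p under 0.05, close to the 9.39% and 6.12% of all genes. The B cell survival factor gene Tnfsf13b (1.10 ± 0.26) and the interleukin-18 antagonist gene Il18bp (1.25 ± 0.41) were positive, and the interleukin-6 receptor gene Il6ra (-0.95 ± 0.28) and Tgfb3 (-0.88 ± 0.31) negative. Of 31 tested NF-kB pathway and feedback genes, of 32 listed, 5 were positive and 1 negative (9.39% and 6.12% of all genes), the negative one being the adaptor gene Traf1 (-0.94 ± 0.30), and the median was 0.25. Tifa, an adaptor that signals bacterial sugar, measured 193, 272 and 175 FPKM in H2 intestine and 185, 220.1 and 186 FPKM in control intestine, and 8.83, 8.65 and 7.54 FPKM in H2 lung and 59.5, 46.8 and 11.01 FPKM in control lung. Control lung 3 lay far below the other 2 control lungs and just above the H2 lungs, and the difference was 1.90 ± 0.64. Relb, a subunit of the alternative NF-kB pathway, lay apart in both organs in opposite order (difference 1.23 ± 0.34), and the kinase gene Ikbke had 1.93 ± 0.65, with a lung overlap that control lung 3 made.

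Of 40 tested metal, heme and antioxidant genes, of 44 listed, 9 had a positive and 1 a negative difference at an unadjusted p under 0.05 (9.39% and 6.12% of all genes), with a median of 0.48 that was 0.28 after quantile normalization. Nfe2l2, the regulator of the antioxidant response, measured 65.7, 44.0 and 55.7 FPKM in H2 intestine and 35.1, 42.5 and 36.2 FPKM in control intestine, and 95.3, 98.0 and 110.1 FPKM in H2 lung and 152, 139 and 105 FPKM in control lung, for a difference of 0.88 ± 0.25. H2 lay wholly above control in the intestine, and in the lung the libraries overlapped through control lung 3. Its target Srxn1, sulfiredoxin, had 143, 158 and 105 FPKM in H2 intestine and 117, 78.8 and 102 FPKM in control intestine, and 11.6, 15.4 and 12.03 FPKM in H2 lung and 42.9, 38.3 and 16.9 FPKM in control lung (difference 1.62 ± 0.43). Thioredoxin gene Txn1 (1.003 ± 0.26) lay apart in both organs, and glutathione peroxidase gene Gpx1 (0.79 ± 0.20) did so in the lung, where every H2 value was below control.

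Cytosolic ribosomal protein genes had a median difference of 0.46 over 48 tested members, 18 of them positive and 0 negative at an unadjusted p under 0.05 (9.39% and 6.12% of all genes), but quantile normalization turned the median to -0.039 with 0 positive and 1 negative, so no direction is given for the group. The lung carried it as deposited, with 43 of 48 members wholly below control in H2 libraries, against 17.7% of all genes, and a median of -0.32, which was -0.049 after quantile normalization. Rpl41 measured 3218, 4365 and 3236 FPKM in H2 intestine and 2776, 3054 and 3061 FPKM in control intestine, and 2887, 2609.7 and 2357 FPKM in H2 lung and 3199, 3409 and 3518 FPKM in control lung. Rpl27, Rpl12 and Rpsa had differences of 0.72 ± 0.23, 0.71 ± 0.23 and 0.61 ± 0.19. Ribosomal protein genes have many processed copies in the genome that can take reads from them. The members had a median transcript length of 0.658 kb.

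**Figure D3:**
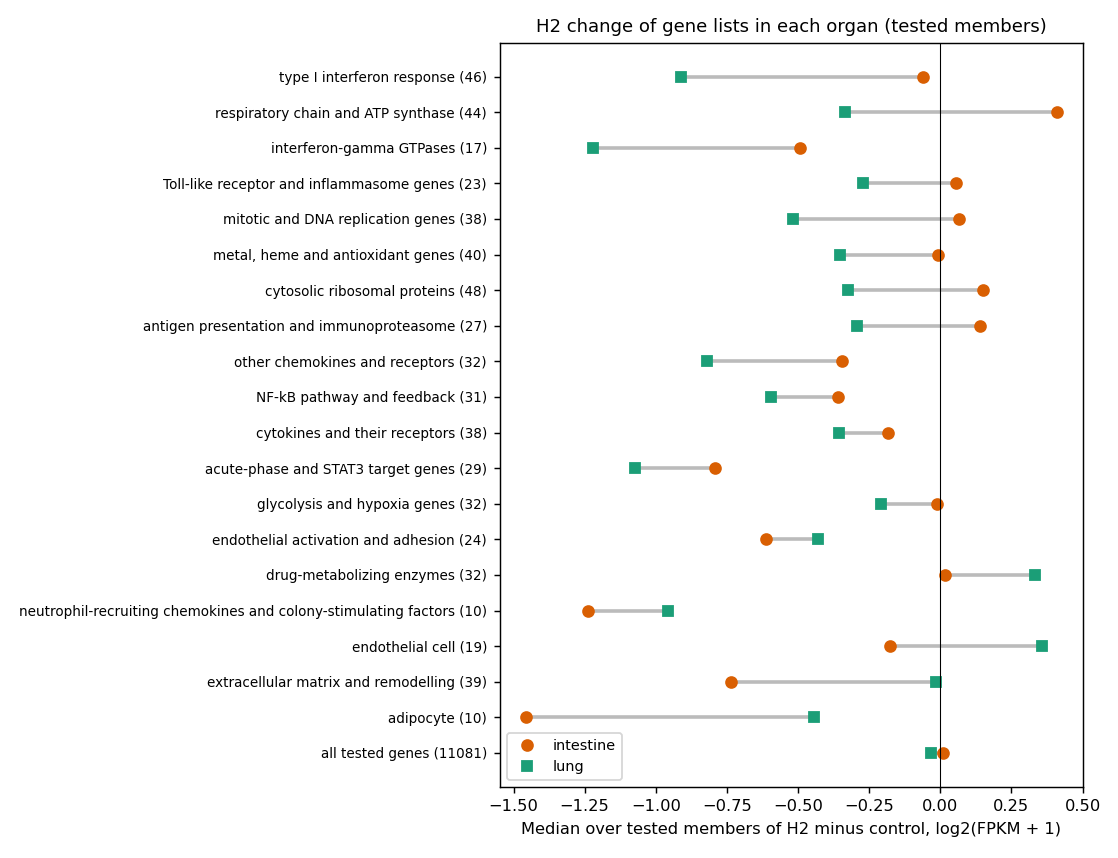
Median over tested members (number in brackets) of H2 minus control in log2(FPKM + 1), in the intestine (circles) and the lung (squares), for 19 gene lists ordered by the median difference between organs, with all 11081 tested genes at the bottom. The respiratory chain has its intestine median above 0 and its lung median below 0, the interferon lists differ mainly in the lung, and the matrix and adipocyte lists mainly in the intestine.

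Matrix genes build and remodel connective tissue. Of 39 members tested of 45 listed, 37 had a lower mean with H2 in the intestine (5396 of all 11081 genes did). At an unadjusted p under 0.05, 13 had a negative and 1 a positive difference (6.12% and 9.39% of all genes), and these counts were 13 and 1 after quantile normalization. The median difference was -0.72, from -0.74 in the intestine and -0.017 in the lung. The lung median was 0.13 after quantile normalization and 0.019 after median-of-ratios scaling. Spp1, osteopontin, measured 1.61, 6.50 and 8.497 FPKM in H2 intestine and 48.9, 13.2 and 24.1 FPKM in control intestine, and 266, 232 and 289 FPKM in H2 lung and 121, 168 and 227 FPKM in control lung. It lay apart in both organs in opposite order, and its difference of -2.84 ± 0.70 was the lowest of the list. Timp2, a metalloproteinase inhibitor, had 3.88, 2.51 and 6.81 FPKM in H2 intestine and 8.97, 9.65 and 7.76 FPKM in control intestine, and 127, 152 and 147 FPKM in H2 lung and 68.8, 118 and 116 FPKM in control lung (difference -1.46 ± 0.39). The collagen gene Col6a2 (-1.16 ± 0.41) also lay apart in both organs, and the elastin gene Eln (-1.05 ± 0.38) did so in the lung, where H2 was higher. The members had a median transcript length of 2.42 kb, against 1.33 kb for all tested genes with a length. The 7 members up to 1 kb had a median difference of -1.01, against 0.13 for all tested genes up to 1 kb. The part of length in the difference of the list was not tested.

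Adipocyte marker levels, which fat attached to an organ can raise in bulk tissue, differed between the intestine libraries. The source of these levels was not tested. Median adipocyte marker levels over 10 tested members were 0.87, 0.96 and 4.07 log2(FPKM + 1) in H2 intestines and 4.89, 4.23 and 4.07 in control intestines, and 5.003, 4.42 and 4.77 in H2 lungs and 3.46, 3.98 and 5.72 in control lungs. H2 intestines 1 and 2 were thus far below the other 4 intestines, and control lung 3 was the highest lung. Adipoq, the fat cell hormone adiponectin, measured 0.0704, 0.0997 and 11.6 FPKM in H2 intestine and 20.8, 17.5 and 14.5 FPKM in control intestine, and 6.08, 2.23 and 3.21 FPKM in H2 lung and 2.04, 2.58 and 19.6 FPKM in control lung (difference -2.50 ± 1.26). The carbonic anhydrase gene Car3 (-3.75 ± 1.21), the adipsin gene Cfd (-3.60 ± 1.48) and the resistin gene Retn (-2.57 ± 1.10) were the 3 of 10 adipocyte members at an unadjusted p under 0.05. All 3 were negative and 0 positive, beside 6.12% and 9.39% of all genes. Summed over 17 adipocyte markers, FPKM were 127 to 317 in H2 intestine and 393 to 598 in control intestine; 4 and 3 markers were listed at 0 in H2 intestines 1 and 2 and 1 in each other intestine library. In the lung the sum was 1462 FPKM in control lung 3, against 593 and 613 FPKM in the other 2 control lungs and 441 to 567 FPKM in H2 lungs. Median matrix gene levels were 2.85, 2.17 and 2.82 log2(FPKM + 1) in H2 intestines, against 3.73, 3.28 and 3.13 in control intestines. H2 intestine 3 had an adipocyte median at the level of the lowest control intestine. Its summed markers and its Adipoq, Car3, Cfd and Retn values lay below every control intestine. In matrix genes it was as low as H2 intestine 1, and H2 intestine 2 was the lowest. The part of fat content in the matrix values was not tested. Without H2 intestine 2 the matrix median in the intestine was -0.37.

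Endothelial markers mark the lining of blood vessels. Of 19 tested of 20 listed, 6 had a negative and 0 a positive difference at an unadjusted p under 0.05 (6.12% and 9.39% of all genes), with a median of -0.52, from -0.18 in the intestine (0.088 without H2 intestine 2) and 0.36 in the lung. Median levels in the lung were 6.44, 6.18 and 6.86 log2(FPKM + 1) in H2 libraries and 4.97, 5.51 and 6.17 in control libraries, where control lung 3 came close to the lowest H2 lung. Summed over 20 markers, FPKM were 2235 to 2992 in H2 lung and 2108 to 2354 in control lung, which overlapped, and no marker was at 0. In the intestine the sums were 608 to 922 FPKM in H2 libraries and 423 to 666 FPKM in control libraries, which also overlapped. The intestine sums thus leaned higher with H2, whereas the intestine median change was negative. The summed alveolar type I markers, given above, were higher in every H2 lung than in every control lung, as was the depth, and their part in the lung values was not tested. Kdr, the main receptor of vascular endothelial growth factor, measured 2.35, 0.973 and 1.77 FPKM in H2 intestine and 2.201, 1.55 and 1.75 FPKM in control intestine, and 41.6, 35.7 and 45.9 FPKM in H2 lung and 21.1, 21.3 and 26.7 FPKM in control lung. The intestines overlapped and the lungs lay apart (difference -0.91 ± 0.27). Vwf, von Willebrand factor, had 0.886, 0.485 and 1.44 FPKM in H2 intestine and 1.22, 1.46 and 1.11 FPKM in control intestine, and 47.6, 54.8 and 71.7 FPKM in H2 lung and 22.4, 29.9 and 38.6 FPKM in control lung (difference -1.18 ± 0.32), and the phosphatase gene Ptprb had a difference of -0.90 ± 0.27. Of 24 genes of endothelial activation tested of 29 listed, 4 were negative and 0 positive (6.12% and 9.39% of all genes). Vwf and Tie1 stand in this list and among the endothelial markers, and are counted as negative in each. F3, tissue factor, was lower with H2 in both organs without overlap, with H2 changes of -1.40 in the intestine and -0.53 in the lung. The anticoagulant receptor gene Thbd (-1.41 ± 0.64) and Tie1 (-1.58 ± 0.65) overlapped in both organs.

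Drug-metabolizing enzymes make foreign compounds soluble. Of 32 members tested of 51 listed, 28 had a higher mean with H2 in the lung (5026 of all 11081 genes did). At an unadjusted p under 0.05, 8 had a negative and 1 a positive difference (6.12% and 9.39% of all genes), and the median was -0.33, with 0.017 in the intestine, or -0.0019 after median-of-ratios scaling, and 0.33 in the lung. Fmo1, a flavin-containing monooxygenase, measured 2.04, 0.964 and 1.74 FPKM in H2 intestine and 1.38, 2.35 and 1.23 FPKM in control intestine, and 205, 207 and 246 FPKM in H2 lung and 38.5, 103 and 147 FPKM in control lung (difference -1.41 ± 0.54). The lungs lay apart with wide spread in the controls, and the sulfotransferase gene Sult1a1 (-1.35 ± 0.37) had the same form. Gstk1, a glutathione transferase, was the positive member, at 51.2, 79.6 and 33.5 FPKM in H2 intestine and 12.2, 26.2 and 15.0 FPKM in control intestine, with overlapping lungs (difference 1.46 ± 0.43). The carboxylesterase gene Ces1d had 1.72, 1.04 and 4.003 FPKM in H2 intestine and 5.90, 5.78 and 5.07 FPKM in control intestine, while its lungs overlapped (difference -1.21 ± 0.38).

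**Figure D4:**
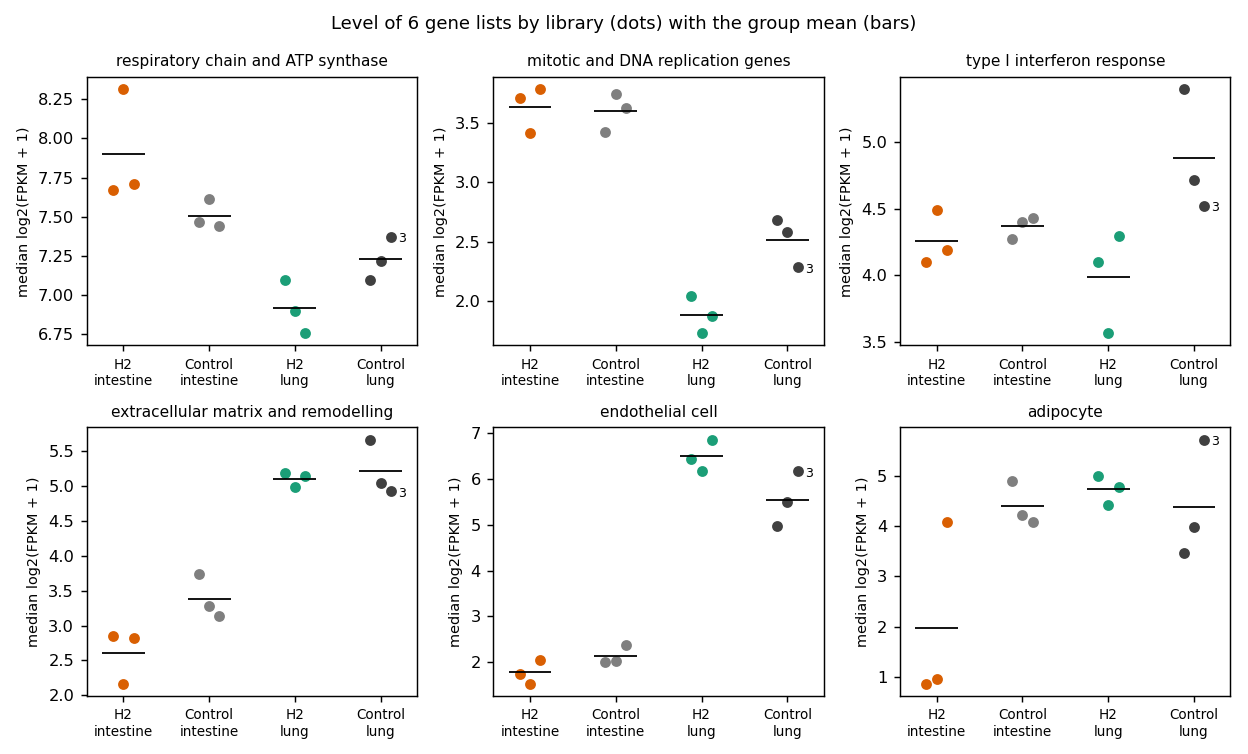
Median log2(FPKM + 1) over tested members of 6 gene lists (y axes, not from 0) in each library (dots, control lung 3 marked), with group means as bars. H2 lungs lie apart from control lungs for the mitotic, interferon and endothelial lists, H2 intestines lie apart from control intestines for the respiratory chain and matrix lists, and H2 intestines 1 and 2 stand low in adipocyte genes.

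Among libraries left out 1 at a time, control lung 3, the control nearest to the H2 lungs, changed the number of calls for the difference most. Leaving out the control library most like the treated ones favours calls, and attention fell on it after its values were seen, so the calls without it describe that setting and are not results of all 12 libraries. Without it, limma called 155 of 11078 genes (1.40%) at an adjusted p under 0.05, 92 with a positive (0.830%) and 63 with a negative difference (0.569%), leaving control lungs 1 and 2 as the lung controls. Of the 155, picked by their difference, which favours opposite signs, 123 had opposite signs (4823 of all 11078 genes did) in the organs, 67 with H2 above control in the intestine and below it in the lung and 56 the reverse. Of the 24 leading genes 20 were among them. With all 12 libraries and the 6 liver libraries in the fit, which adds to the estimate of spread, 43 genes were called, 22 of the 24 among them, and 29 were shared with the 155. Members of the 19 lists described passed as follows in the fit without control lung 3: 7 of the mitotic genes, 5 of the other chemokines, 5 of the acute-phase genes, 4 of the metal and antioxidant genes, 3 each of the type I interferon and NF-kB genes, 2 of the glycolysis genes and 1 each of antigen presentation, inflammasome and endothelial activation, all positive. A negative call was made for 1 drug enzyme, Sult1a1, and 1 endothelial marker, Calcrl. Genes of further lists with a negative call were Fst, Stmn2, Cacnb3, Ctgf and Emp2. Only 1 respiratory chain gene passed, Atp5g1, and of the matrix and adipocyte lists 0 passed, with 3 matrix genes positive and 10 negative at an unadjusted p under 0.05 (11.6% and 8.12% of all genes), and 0 adipocyte genes positive and 6 negative.

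In that fit Tifa had a difference of 2.62 ± 0.27 (limma adjusted p 0.00589), Ackr1 3.32 ± 0.40 (0.00714), Elovl6 1.73 ± 0.21 (0.00714), Cdca3 1.76 ± 0.21 (0.00714), Saa2 2.88 ± 0.43 (0.0162), Ccnb1 1.71 ± 0.26 (0.0177), Irf7 2.67 ± 0.50 (0.0328), Zbp1 2.85 ± 0.55 (0.0362) and Pitpnc1 -1.68 ± 0.23 (0.0105). The H2 change in the intestine was small for some of these, at 0.090 for Tifa, -0.43 for Ackr1 and -0.33 for Saa2. Leaving out H2 intestine 3 in place of control lung 3 gave 39 calls, and leaving out H2 intestine 2 gave 0.

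**Figure D5:**
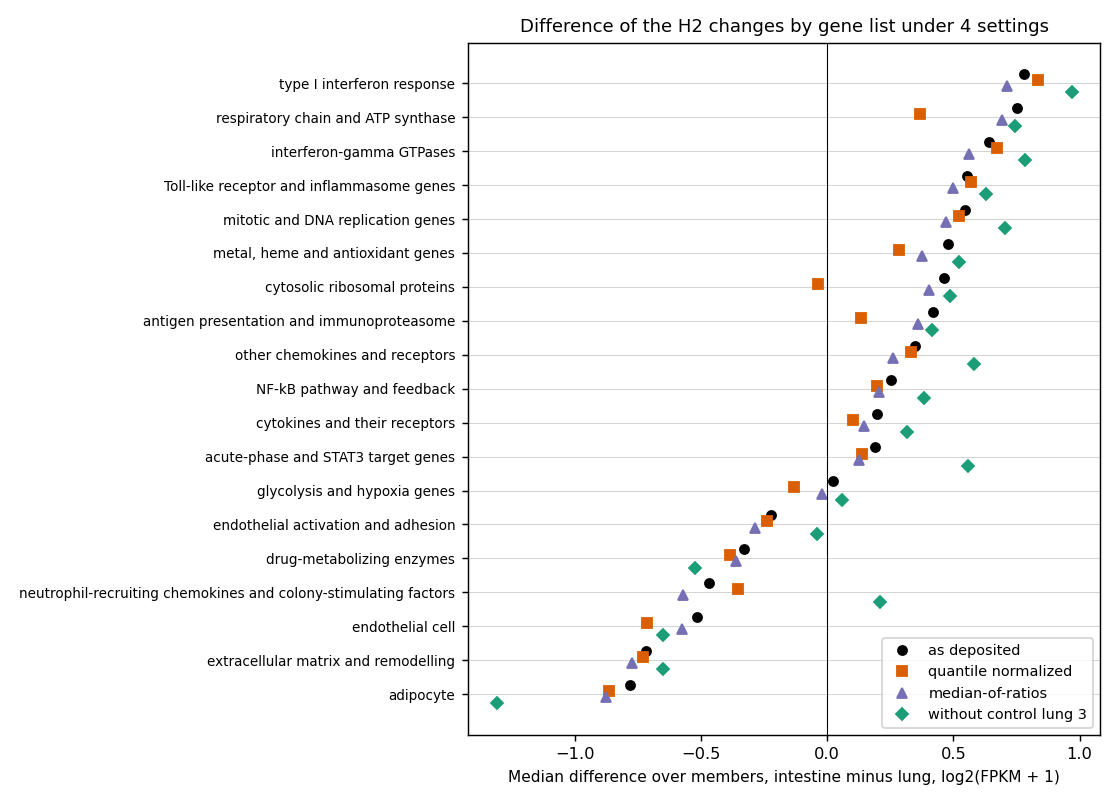
Median difference over tested members (x axis, intestine minus lung, log2(FPKM + 1)) of 19 gene lists with the values as deposited, after 2 other scalings, and without control lung 3. The cytosolic ribosomal list moves to -0.039 after quantile normalization and the neutrophil-recruiting list to 0.21 without control lung 3, while the respiratory chain, interferon, mitotic and matrix lists keep their sign.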

How the data were processed

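Total RNA of intestine and lung was extracted with the miRNeasy Micro kit and made into libraries with a TruSeq stranded mRNA kit, per the labels' protocols. The authors deposited 1 value per gene symbol and library. Its unit is not named with the values, and FPKM was taken from the submitters' processing notes and the values themselves. The description of some replicates repeats a number from another sample, so groups were taken from titles and treatment labels. Reads were handled with Bowtie2 2.2.3, Cufflinks 2.2.1, SAMtools 0.1.19 and TopHat2 2.0.13 on mm10, per the submitters' processing notes; the annotation and the options are not given in the sources used here, nor is how reads that fit several gene copies were assigned. FPKM weighs each library by its own fragment total, so abundant transcripts in 1 library lower all its other values. The files hold no counts; the implied depth comes from the smallest values of many genes and is an estimate. In the file of control lung 2, 1 extra column repeats control lung 3 (0 values differ) and was not used.

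From the deposited FPKM, log2(FPKM + 1) was fitted with limma 3.58.1 in R 4.3.3 (empirical Bayes with a trend) over the 4 groups, after a filter of mean FPKM of at least 1 in each organ, and p-values were adjusted by Benjamini-Hochberg over 11081 genes with a threshold of 0.05. The fit has 8 residual degrees of freedom. It was tested on simulated data with known changes. The difference was a contrast in that fit, and libraries with the same number were not treated as pairs. Alternatives changed the pseudocount (0.1 and 5), the filter (none and 5), the scaling, the fit and the libraries. As no gene passed, the named genes were the 12 with the smallest p in each direction, up to 4 members per list by p, and the inflammatory panel. Predicted and small RNA genes (names starting Gm with a number, Mir, Snor, Scarna, Rnu or LOC, or ending Rik) were left out by the rule. Cycs, Atp5d, Calcrl, Stmn2, Cacnb3 and Ctgf were named after their values were seen. A list member that the rule names is not reported here, and no other gene took its place. The members and gene lists were chosen with earlier results of these data known. Promoter windows are from RefSeq, GRCm38.p6; gene positions and transcript lengths are from GENCODE vM21 on GRCm38 (mm10).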

Additional observations from a re-analysis of the deposited data

How the results depend on the processing

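FPKM without counts limit what depth can be said about each value, and 3 libraries per group limit the precision. As deposited, limma called 0 genes for the difference between organs, in the intestine and in the lung. The counts of calls for these 3 were 1, 0 and 0 with a pseudocount of 0.1, 9, 28 and 65 with no filter on low values, 43, 88 and 198 with all 18 libraries, and 1824, 504 and 6277 with array weights, whose estimation did not converge. The lung had 9 calls with a pseudocount of 5 and 1 with its 6 libraries alone, and the intestine 1 after quantile normalization. Genes at an unadjusted p under 0.05 were 2956 for the difference and 3593 in the lung with no filter, 1137, 1389 and 1181 for the 3 with a filter of 5 FPKM, 3694 for the difference and 6836 in the lung with array weights, and 1380 in the intestine with its 6 libraries alone. The cause was not tested, other than that the filters changed the number of genes.

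Leaving out 1 library at a time gave 0 to 155 calls for the difference (1123 to 2487 genes at an unadjusted p under 0.05), 0 to 596 in the intestine (1165 to 2990) and 0 to 1163 in the lung (832 to 3024). For the difference the calls were 155 without control lung 3, 39 without H2 intestine 3, 4 without H2 intestine 1, 1 without control intestine 2, 1 without control intestine 3 and 0 without each other library. In the intestine they were 596 without H2 intestine 3, 91 without control intestine 2, 13 without H2 intestine 1 and 1 without control intestine 3, and the 1163 in the lung came without control lung 3. At an unadjusted p under 0.05 the difference had 1123 genes without H2 lung 3, the intestine 1165 without H2 intestine 2 and 1211 without control intestine 1, and the lung 3024 without control lung 3, 832 without control lung 1 and 1207 without H2 lung 3. In the pair chosen after seeing the data, without both control lung 3 and H2 intestine 2, there were 94 calls for the difference and 1534 in the lung, where 3415 genes had an unadjusted p under 0.05.

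Same-numbered libraries of different groups had correlations of their deviations from -0.12 to 0.23 over 18 pairs. The highest value of all, 0.31, was between control intestine 2 and control lung 3, which differ in number. Of 12 libraries 5 correlated best with their own number. With 3 libraries per group these values cannot decide whether libraries share a mouse. With the replicate block 0 genes were called for the difference and 1739 had an unadjusted p under 0.05, and with a block of mouse number within treatment these were 0 and 1620.

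With 1 library left out at a time the median differences of the lists ran from 0.58 to 0.86 for respiratory chain and ATP synthase, 0.28 to 0.55 for cytosolic ribosomal proteins, 0.38 to 0.72 for mitotic and DNA replication genes, -0.069 to 0.18 for glycolysis and hypoxia genes, 0.53 to 0.97 for type I interferon response, 0.34 to 0.92 for interferon-gamma GTPases, 0.31 to 0.56 for antigen presentation and immunoproteasome. They ran from 0.18 to 0.63 for Toll-like receptor and inflammasome genes, 0.12 to 0.61 for other chemokines and receptors, -1.33 to 0.57 for neutrophil-recruiting chemokines and colony-stimulating factors, 0.031 to 0.32 for cytokines and their receptors, 0.11 to 0.56 for acute-phase and STAT3 target genes, 0.054 to 0.38 for NF-kB pathway and feedback. The rest ran from -0.97 to -0.43 for extracellular matrix and remodelling, -0.74 to -0.27 for endothelial cell, -0.44 to -0.041 for endothelial activation and adhesion, -0.52 to -0.24 for drug-metabolizing enzymes, 0.32 to 0.52 for metal, heme and antioxidant genes and -1.31 to -0.49 for adipocyte. The mitotic median was 0.76 with a pseudocount of 0.1, 0.28 with 5, 0.13 with a filter of 5 FPKM and 0.79 with array weights, which also gave 1.29 for the interferon-gamma GTPases. Quantile normalization gave 0.37 for the respiratory chain and -0.039 for the ribosomal genes. Without both control lung 3 and H2 intestine 2 the medians were 0.79 for mitotic, 0.32 for ribosomal, 0.76 for other chemokine, 0.54 for acute-phase and 0.15 for endothelial activation genes.

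Over 103 named genes, 2736 gene values under alternatives held 2512 on the same side of the threshold with the same sign, 190 that passed it and 34 of 8 genes with the sign turned, all in the inflammatory panel. Leaving out 1 library turned 27 of these, and the differences then ran from -0.078 to 2.53 for Il6, -0.20 to 0.79 for Tnf, -1.03 to 0.60 for Il1b, -1.29 to 0.77 for Cxcl1, -1.78 to 0.76 for Cxcl2, -0.87 to 0.31 for Ccl2, -0.50 to 0.30 for Lcn2 and -1.15 to 0.28 for S100a8. Cxcl1 was 0.026 with a pseudocount of 5 and Il1b 0.059 with array weights. Without both control lung 3 and H2 intestine 2, Il1b was 0.92, Cxcl1 1.54, Cxcl2 1.42, Ccl2 0.76 and Lcn2 0.48.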

Other observations

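Without control lung 3, genes not named above also passed the test; they were picked after their values were seen. Lyve1, a hyaluronan receptor of lymphatic endothelium and some macrophages, had H2 changes of 0.21 in the intestine and -3.30 in the lung (difference 3.51 ± 0.38, limma adjusted p 0.00589). Inhbb, the activin B subunit, was lower with H2 in both organs, with -0.90 in the intestine and -3.62 in the lung (difference 2.71 ± 0.34, limma adjusted p 0.00726). Slc39a14, a zinc and iron importer, had 0.041 in the intestine and -2.17 in the lung (difference 2.21 ± 0.29, limma adjusted p 0.00976), and Top2a, the DNA topoisomerase of dividing cells, 0.083 in the intestine and -1.41 in the lung (difference 1.49 ± 0.22, limma adjusted p 0.0162). Stmn2, which regulates microtubules in growing neurites, went the other way with -0.61 in the intestine and 3.22 in the lung (difference -3.84 ± 0.49, limma adjusted p 0.00885), the same signs as Gap43. With all 12 libraries none of these 5 passed.

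Further lists gave these counts of genes at an unadjusted p under 0.05 with all 12 libraries, against 9.39% positive and 6.12% negative over all genes, and 0 passed after adjustment. Apoptosis and survival genes had 5 positive and 0 negative of 28, median 0.31. Immediate early genes had 0 positive and 3 negative of 33, median -0.34, and TGF-beta and activin genes 0 positive and 4 negative of 27, median -0.098. Neutrophil markers had 0 positive and 1 negative of 19, median -0.43, and monocyte and macrophage markers 2 positive and 1 negative of 23, median 0.21. Alveolar type II markers had 0 positive and 3 negative of 6, median -0.37.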
